A study of Mus musculus with 7 samples.

Results

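The synaptotagmins examined here are 10 genes, Syt1, Syt2, Syt3, Syt4, Syt5, Syt7, Syt9, Syt11, Syt13 and Syt14, chosen by name. Their probes were found by the transcript accession that the scanner files give each probe, matched to RefSeq gene symbols. In this way 12 of the 56605 probes on the array were matched to 9 of the 10 genes. No probe was matched to Syt5 through the table used, and Syt5 was not analysed here. The samples were MIN6 cells, an established insulin-secreting line from mouse pancreatic beta cells. They were kept for 3 days with MPE, which is a Maidong polysaccharide extract, or with PBS as vehicle, and RNA was measured on 1-colour Agilent arrays, 3 for vehicle and 4 for MPE. All groups shared the same medium, with serum, antibiotics and 2-mercaptoethanol, and the labels give several MPE concentrations without saying which was used for the arrays. The labels do not say whether replicates were separate cultures, and the p-values therefore cover only the spread between these arrays, part of which may be technical.

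Many synaptotagmins are membrane proteins of secretory vesicles, and the family typically carries a pair of C2 domains towards the cytosol. In the calcium-binding members these domains bind calcium and acidic phospholipids and act on the SNARE proteins that fuse the vesicle with the plasma membrane. In beta cells, Syt7 and Syt9 are the members best known for coupling calcium entry to insulin release. The name calcium sensor does not hold for every gene in the set. Syt4 and Syt11 have a substitution at a calcium-coordinating position of the first C2 domain, and Syt13 and Syt14 lack the residues needed to bind calcium.

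All 7 arrays lay on 1 slide, with vehicle in its first row and MPE in its second row, so the treatment and the row on the slide cannot be told apart. The vehicle arrays had 29501 to 30122 probes well above background and the MPE arrays 27944 to 28514, fewer on every MPE array. The lowest signal that counted as such was 12.6 to 15.5 on the vehicle arrays and 20.6 to 24.4 on the MPE arrays. All 10 beta-cell markers, among them Ins1, Ins2 and Pdx1, were well above background on every array. Of 8 neuronal markers, Rbfox3 and the transmitter transporters Slc17a6, Slc17a7 and Slc32a1 were above background on no array, while Map2, Nefl, Nefm and Camk2a were above it on all. The hormone genes Gcg, Sst, Ppy and Ghrl of other islet cells were also above background on all arrays. The summed signal of the stromal, endothelial and immune markers, in multiples of the array's 75th percentile, was 17.8 to 21.9 with vehicle and 15.1 to 17.1 with MPE. Of these 8 markers, Itgam and Cd68 alone were well above background on all arrays, and Col1a1, Col3a1 and Pdgfrb were so on none. On the log2 scale, relative to the same percentile, Itgam averaged 4.27 with vehicle and 3.92 with MPE, and Cd68 -0.66 and -0.56. The sum thus mainly reflects Itgam. All MPE arrays of Itgam were below its vehicle arrays, as for 3.36% of all genes tested, and its adjusted limma p was 0.984. The same sum over 6 exocrine and duct markers was 0.152 to 0.165 with vehicle and 0.151 to 1.19 with MPE, highest on MPE replicate 4. Of these 6, the lipase gene Cel alone was above background on all arrays, and Cpa1, Pnlip, Ptf1a and Sox9 were so on none. Cel had a log2 difference, MPE minus vehicle, of 1.63 (SE 0.57). Its groups overlapped, and it did not pass limma's test after adjustment. The part of these markers in the results was not tested.

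All 9 measured synaptotagmins were expressed, each with a probe well above background on all 7 arrays. Of all 22911 genes with a symbol and a probe, 56.5% met the same rule. Of the 12 probes, 11 met it, and the exception was a probe of Syt14. Detection had a wide margin for Syt13, whose signal was 2679 to 4643 times the lowest signal well above background on the same array. That margin was 239 to 403 for Syt11, 100.0 to 172 for Syt4, 37.9 to 57.8 for Syt1, 35.5 to 61.5 for the brighter Syt3 probe and 27.2 to 42.7 for Syt9. It was narrower for Syt7, at 5.46 to 10.8, for the brighter Syt2 probe, at 3.47 to 6.31, and for the brighter Syt14 probe, at 1.33 to 2.96. These ratios say how far a probe stood above its detection limit. Probes differ in how well they hybridize, so the ratios do not rank the genes by transcript number.

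The 7 other synaptotagmin genes on the array split. Syt6 and Syt17 had a probe well above background on all arrays. Syt8 was well above background on 1 vehicle array and no MPE array. Syt10, Syt12, Syt15 and Syt16 were not well above background on any array, by any of their probes. Syt6 itself had a second probe, for another transcript, that was above background on no array.

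**Figure D1:**
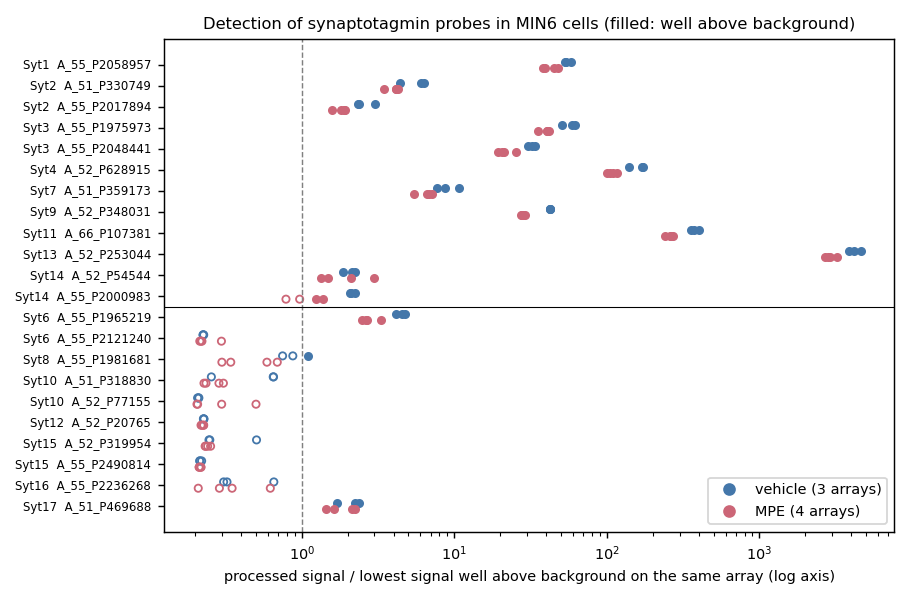
Signal of each synaptotagmin probe (rows) divided by the lowest signal well above background on the same array, on a log axis, with 1 point per array; filled points were flagged well above background and open points were not. Above the horizontal line, all probes of the 9 measured genes lie to the right of 1 on all arrays, except for 2 MPE arrays of the second Syt14 probe; below it only Syt6, Syt17 and 1 array of Syt8 do.

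RefSeq promoter windows (GRCm38.p6) were at hand for 6 of the 10 genes, and for 5 of the 7 other synaptotagmins. They are shown because expressed and unexpressed genes can be set side by side on CpG content, the count of CG pairs in the 250 bases before the start of transcription. Over 32851 windows of all genes the median was 6 CG pairs. The first pair below are the windows with the most and the fewest CG pairs among the expressed genes, Syt9 with 40 and Syt1 with 5. The second pair are the corresponding windows of other synaptotagmins, of which Syt10 was above background on no array and Syt8 on 1 vehicle array alone, Syt10 with 32 and Syt8 with 1. CG pairs are in capitals, and each sequence runs 5′ to 3′.
Syt9 promoter, chr7:107370540-107370789 (+ strand): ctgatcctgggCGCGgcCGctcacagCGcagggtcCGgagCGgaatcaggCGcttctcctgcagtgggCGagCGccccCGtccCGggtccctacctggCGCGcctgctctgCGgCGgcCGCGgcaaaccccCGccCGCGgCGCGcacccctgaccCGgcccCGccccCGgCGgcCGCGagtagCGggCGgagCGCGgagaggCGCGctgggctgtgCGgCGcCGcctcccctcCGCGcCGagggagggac
Syt1 promoter, chr10:109009112-109009361 (- strand): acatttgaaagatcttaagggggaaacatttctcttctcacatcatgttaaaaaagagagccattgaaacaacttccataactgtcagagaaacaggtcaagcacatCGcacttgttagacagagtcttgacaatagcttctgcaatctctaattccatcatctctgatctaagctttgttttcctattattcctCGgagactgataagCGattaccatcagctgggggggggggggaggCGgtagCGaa
Syt10 promoter, chr15:89841861-89842110 (- strand): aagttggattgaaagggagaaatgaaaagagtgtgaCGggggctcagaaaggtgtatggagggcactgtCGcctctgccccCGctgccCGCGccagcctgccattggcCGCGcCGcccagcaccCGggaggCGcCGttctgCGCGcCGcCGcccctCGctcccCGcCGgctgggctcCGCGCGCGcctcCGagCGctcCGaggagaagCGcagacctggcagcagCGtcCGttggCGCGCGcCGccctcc
Syt8 promoter, chr7:142434600-142434849 (+ strand): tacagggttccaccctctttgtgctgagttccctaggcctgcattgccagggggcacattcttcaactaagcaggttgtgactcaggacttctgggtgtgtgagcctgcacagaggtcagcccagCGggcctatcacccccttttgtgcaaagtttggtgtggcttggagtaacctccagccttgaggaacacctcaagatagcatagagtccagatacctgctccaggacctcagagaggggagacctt

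Whether the count of CG pairs goes with expression was not tested, and windows of the expressed Syt4, Syt7 and Syt13 were not analysed here. The 8 windows of expressed members held 5 to 40 CG pairs, with 30 and 22 at the starts of Syt2, 25 for Syt14, 9 for Syt11 and 8 for Syt3. The 3 windows of Syt6, also expressed, held 13 to 15. Among genes with no probe above background, Syt10 held 32, Syt16 held 30 and Syt15 held 15. The 3 windows of Syt8 held 1, 2 and 1, the lowest counts of the 17. The letters TATAAA, searched on both strands, were in 0 of the 17 synaptotagmin windows and in 12.4% of all windows. The cAMP response element TGACGTCA was in 0 of the 17 and in 1.55% of all.

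The comparison of MPE with vehicle asks whether the extract altered the transcript level of these genes after 3 days. None of the 9 measured genes passed limma's test at an adjusted p under 0.05, in either direction, where 0.00453% of 22060 genes tested did. A probe target without a gene symbol counted as a gene of its own, and 13653 of the 22060 had a symbol. None of the 9 had an unadjusted p under 0.05, against 4.11% of all genes, and for none did the arrays of both groups fail to overlap, against 4.53%. Every one of the 9 had an adjusted p of 1. The fitted difference was above 0 for 4 genes, Syt14 among them by 1 of its probes, and below 0 for 5, and its median was -0.02 on the log2 scale, the same as over all genes. For 8 of the 9 the 95% interval of the difference lay inside 1.5-fold in both directions, as it did for 80.7% of all genes. For 7 of the 9 the difference was smaller than the SD within groups. Levels below are log2 values relative to the 75th percentile of the same array, and a level of 1 is thus 1 doubling above that percentile.

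**Figure D2:**
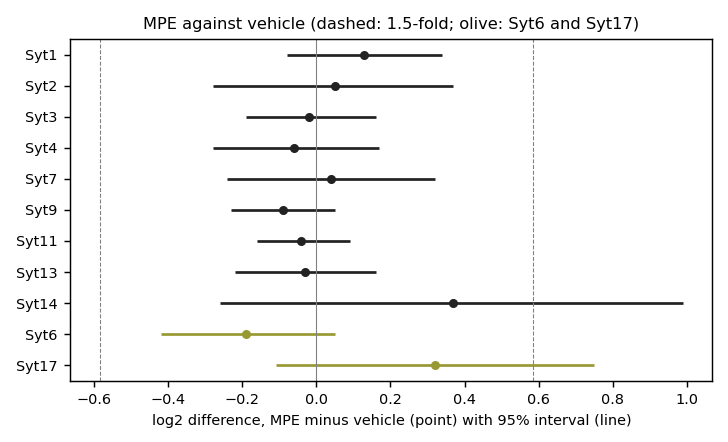
Log2 difference, MPE minus vehicle, of each tested synaptotagmin gene (point) with its 95% interval from limma (line), in black for the 9 members and in olive for Syt6 and Syt17. All intervals include 0, and those of Syt14 and Syt17 reach beyond 1.5-fold (dashed lines).

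Syt1, Syt2 and Syt9 are the sensors known for fast, synchronous release. Syt1, the sensor of most forebrain synapses, stood at 1.14, 1.12 and 1.12 on the vehicle arrays and at 1.33, 1.43, 1.19 and 1.08 on the MPE arrays. The vehicle arrays were nearly equal, 3 of 4 MPE arrays lay above all of them, and the lowest array of all was MPE replicate 4. The log2 difference was 0.13 (SE 0.09, 95% interval -0.08 to 0.34), with an unadjusted limma p of 0.184. This spread of 0.15 (SD, n = 4) within MPE, against 0.01 (SD, n = 3) within vehicle, is as large as the difference between the means.

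Syt2, the close relative of Syt1 in hindbrain and neuromuscular synapses, was measured by a pair of probes for the same transcript, NM_009307. The brighter probe read -2.48, -2.14 and -1.96 with vehicle and -2.10, -2.36, -2.04 and -2.07 with MPE. The MPE arrays fell inside the range of the vehicle arrays, whose replicate 1 was the lowest. On average MPE stood at 1.03 times vehicle (95% interval 0.825 to 1.30). The dimmer probe gave a difference of -0.00 on the log2 scale (SE 0.10).

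Syt9, a sensor of insulin granules in beta-cell lines, read 0.79, 0.69 and 0.79 with vehicle and 0.61, 0.63, 0.76 and 0.65 with MPE. Replicates 1, 2 and 4 of MPE were below all vehicle arrays, and MPE replicate 3 overlapped them. MPE stood at 0.940 times vehicle (0.852 to 1.04). Its unadjusted p of 0.175 was the smallest among the 9 genes.

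Syt3 and Syt7 bind calcium with higher affinity and are associated with slower release and with vesicle replenishment. Syt7 read -1.49, -1.29 and -1.68 with vehicle and -1.39, -1.41, -1.66 and -1.31 with MPE. The extremes in both directions were vehicle arrays, and the MPE level was 1.03 times vehicle (0.849 to 1.25). The only probe matched to Syt7 was assigned to NM_173068, 1 of several Syt7 transcripts, so others may be missed. Syt3, which has been found in islet cells as well as in brain, read 1.26, 1.21 and 1.06 with vehicle and 1.23, 1.20, 1.04 and 1.17 with MPE on its brighter probe. Replicate 3 was the lowest array in each group. The MPE level was 0.990 times vehicle (0.877 to 1.12), and the second Syt3 probe gave a log2 difference of -0.07 (SE 0.11).

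Among the members with altered or missing calcium sites, Syt4 is a vesicle protein that in maturing beta cells sets how sensitive secretion is to calcium. It read 2.50, 2.68 and 2.81 with vehicle and 2.56, 2.49, 2.76 and 2.62 with MPE. All MPE arrays but replicate 2 lay within the vehicle range, and the MPE level was 0.962 times vehicle (0.822 to 1.13). Syt11, its closest relative, a protein of vesicle recycling, varied least. It read 3.92, 3.92 and 3.86 with vehicle and 3.92, 3.89, 3.80 and 3.87 with MPE, a range of 0.13 over all 7 arrays. The MPE level was 0.976 times vehicle, with the narrowest interval of the set (0.896 to 1.06).

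Syt13, an atypical synaptotagmin of endocrine cells that takes part in islet development, read 7.40, 7.45 and 7.30 with vehicle and 7.34, 7.51, 7.34 and 7.22 with MPE. The highest and the lowest array were both MPE arrays, replicates 2 and 4. Its MPE level was 0.981 times vehicle (0.860 to 1.12). No spot was saturated on any array, so the bright signal of this probe was not at the scanner's limit.

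**Figure D3:**
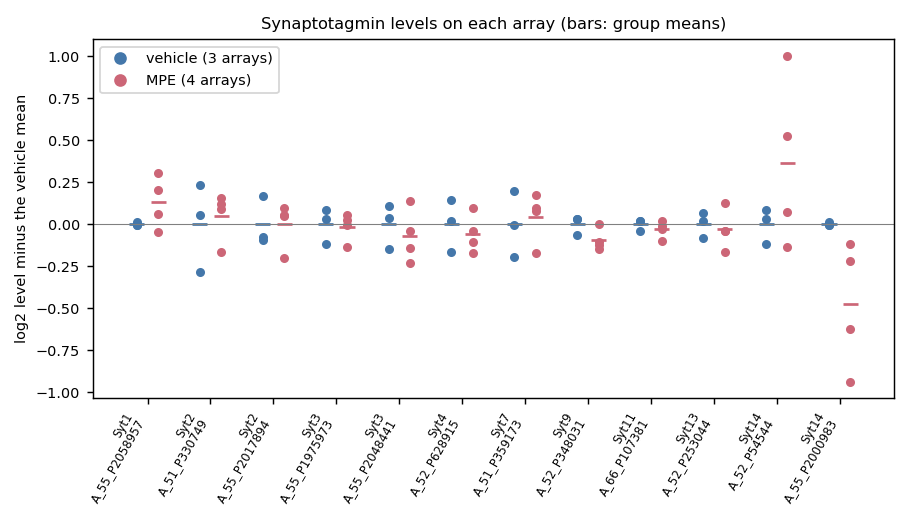
Log2 level of each of the 12 probes on each array, given as the difference from the probe's vehicle mean, with vehicle arrays in blue, MPE arrays in red and bars at group means. The MPE arrays spread over a range of 0.35 for Syt1, whose vehicle arrays span 0.02, and most widely for the Syt14 probes, over 1.14 and 0.82, upwards for 1 probe and downwards for the other.

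The pair of Syt14 probes gave fitted differences of opposite sign. With MPE the difference between the probes shifted by less than its SD over the MPE arrays, but by more than its SD over the vehicle arrays. Syt14 encodes an atypical synaptotagmin expressed in brain, and its probes were assigned to different transcripts. The probe for NM_181546 stands for the gene because its mean over all 7 arrays was the higher, but on the vehicle arrays alone it was the dimmer, at a mean of -3.60 against -3.56. The value given for the gene therefore depends on levels in MPE, and with the other probe it has the opposite sign. The probe for NM_181546 read -3.72, -3.57 and -3.52 with vehicle and -3.74, -3.08, -3.53 and -2.60 with MPE. Replicates 2 and 4 of MPE were above all vehicle arrays, and replicate 1 was below them. By this probe MPE stood at 1.29 times vehicle, with the widest interval of the set (0.834 to 1.99), and the log2 difference of 0.37 was 0.15 without MPE replicate 4.

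The Syt14 probe for NM_001301370 read -3.57, -3.57 and -3.55 with vehicle and -3.68, -4.19, -3.78 and -4.50 with MPE. All 4 MPE values were lower than all 3 vehicle values, as they were for 3.36% of all genes tested. The share over all probes was not counted. The log2 difference was -0.48 (SE 0.20) in a limma fit over all 28874 probes, with an unadjusted p of 0.0445 and an adjusted p of 1. It was the only 1 of the 12 probes with an unadjusted p under 0.05, against 4.15% of all probes, and 0.0104% of all probes passed after adjustment. The probe was well above background on all 3 vehicle arrays and on MPE replicates 1 and 3 only. Its signal of 16.3 on MPE replicate 4 was above the lowest signal counted as detected on any vehicle array.

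On the MPE arrays the Syt14 probes ran in opposite order. Replicate 4 was the highest of them on the probe for NM_181546 and the lowest on the probe for NM_001301370, replicate 2 came next on both, and replicates 3 and 1 followed. The vehicle arrays differed by at most 0.20 on the first probe and 0.02 on the second. The difference between the probes was 0.84 higher with MPE on the log2 scale, with an SD of 0.89 over the MPE arrays and 0.10 over the vehicle arrays (exact permutation test over 35 splits, two-sided, p = 0.229, adjusted p = 0.687 over 3 genes). For Syt2 and Syt3 the same difference was 0.05 each (exact permutation p = 0.857 and 0.800, both adjusted to 0.857). These 3 tests were chosen after the values were seen, and 35 splits allow no permutation p under 0.0286 before adjustment. Both Syt14 probes had signals under 3 times the detection limit, and the part of low signal in their spread was not tested.

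**Figure D4:**
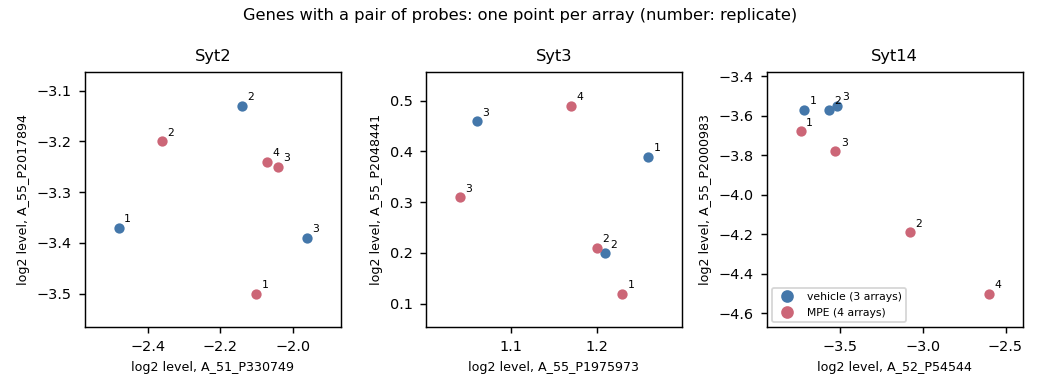
Log2 level of the second probe (vertical axis) against the first (horizontal axis) for the genes with a pair of probes, with 1 point per array labelled by its replicate number, vehicle in blue and MPE in red. For Syt14 the vehicle arrays sit together near -3.6 and -3.56 and the MPE arrays run from there towards replicate 4, at -2.60 on the horizontal and -4.50 on the vertical axis.

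Syt6 and Syt17, the other expressed synaptotagmins, did not pass either. Syt6 read -2.44, -2.47 and -2.57 with vehicle and -2.43, -2.74, -2.79 and -2.76 with MPE, and the MPE level was 0.879 times vehicle (0.745 to 1.04). Syt17 had a mean of -3.59 ± 0.24 (SD, n = 3) with vehicle and -3.27 ± 0.29 (SD, n = 4) with MPE, a log2 difference of 0.32 (95% interval -0.11 to 0.75). Both groups overlapped for both genes.

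Synaptotagmins act on a larger machinery, and 67 further genes of calcium-triggered exocytosis were examined in 5 lists, of which 54 were tested. With Syt6 and Syt17 counted in, 0 of 56 passed limma's adjusted threshold, 24 were fitted above 0 and 32 below, and the median was -0.03. At an unadjusted p under 0.05 there were 0 higher and 2 lower, where 0.757% and 3.35% of all genes were. The groups did not overlap for 1 gene, which was lower, against 3.36% of all genes. Without a filter on dim probes, 4 of the 74 were called higher and 0 lower at limma's adjusted p under 0.05, where 21.2% and 0.767% of all 45478 genes were. None of the 4 was above background on any array.

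Among other C2-domain proteins, which include the Doc2, synaptotagmin-like and ferlin families, 5 of 13 tested genes were fitted above 0. Doc2g had a log2 difference of 0.73 (SE 0.41), or 0.42 without MPE replicate 3, with MPE replicates 2 and 3 at -1.64 and -1.08 and all other arrays between -2.91 and -2.48. Sytl3, a Rab27-binding protein, had -0.23 (SE 0.11). Of the SNARE proteins and their regulators, all 21 were tested and 9 were fitted above 0. The plasma-membrane SNARE Snap23 had the smallest p of all lists, 0.00901 before adjustment and 1 after it, at a log2 difference of -0.34 (SE 0.09). Its MPE arrays, at 2.67 to 2.78, were below its vehicle arrays, at 2.90 to 3.28, but a second Snap23 probe gave -0.01 (SE 0.07). The other gene with an unadjusted limma p under 0.05 was the SNARE Snap25, at 0.0349, with a log2 difference of -0.27 (SE 0.10). Snap25 did not pass after adjustment, and its groups overlapped. The syntaxin-binding gene Stxbp4 had 0.46 (SE 0.39), and without MPE replicate 4 it had 0.08 (SE 0.09).

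Complexins clamp and promote SNARE assembly beside synaptotagmin, and 2 of 4 were expressed. Cplx2 had a log2 difference of -0.09 (SE 0.05) and Cplx1 of 0.03 (SE 0.09). In the priming and docking list, 6 of 15 tested genes were fitted above 0. The active-zone gene Rims2 had 0.18 (SE 0.12) and the priming factor Cadps had -0.06 (SE 0.05). Of the SV2 proteins, vesicle proteins that bind synaptotagmin, Sv2a had 0.04 (SE 0.06) and Sv2c had -0.31 (SE 0.16). The list medians were between -0.04 and 0.07, and no gene of these lists passed the adjusted threshold.

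**Figure D5:**
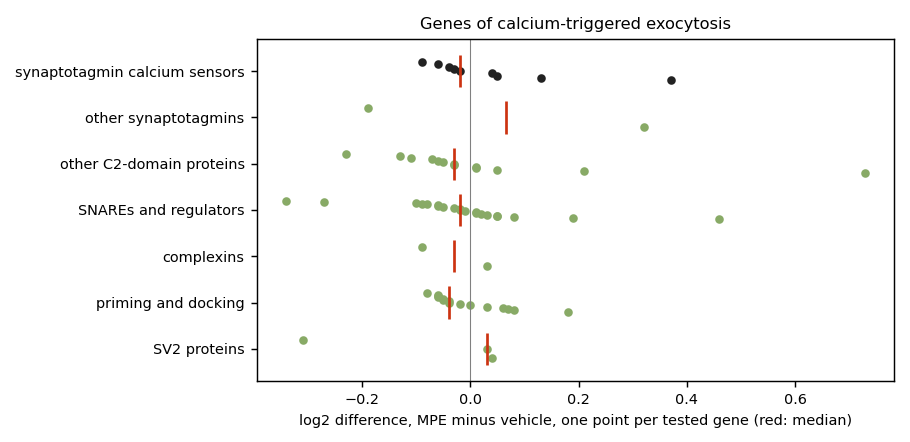
Log2 difference, MPE minus vehicle, with 1 point per tested gene and a red bar at each list's median, for the synaptotagmins and the lists of exocytosis genes. The medians lie between -0.04 and 0.07, and the genes farthest from 0 are Doc2g at 0.73, Stxbp4 at 0.46, the member Syt14 at 0.37 and Snap23 at -0.34.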

How the data were processed

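RNA from MIN6 cells carried Cy3 on 1-colour Agilent arrays, per the labels. The intensities deposited by the authors were background-subtracted and detrended within each array by Agilent Feature Extraction 11.5.1.1, per the file headers (10.5.1.1 per the submitters' processing notes), with flags for detection, saturation and outliers. The authors' deposited value table holds log2 values with the same median, 4.438, in every column. Its tool is not named in the sources used here. It served as an alternative.

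Control spots and 611 outlier-flagged spots were left out. Log2 processed intensities were reduced by each array's 75th percentile. Probes had to be well above background on 3 or more arrays and to keep an unflagged spot on every array (28874 probes, 22060 genes). Probe targets without a symbol counted as genes of their own, and 13653 of the 22060 genes had a symbol. A gene was represented by its brightest probe. Of 56605 probes, 32994 matched a symbol in RefSeq's GRCm38.p6 table. The treatment term was fitted in limma 3.58.1 (lmFit, eBayes; R 4.3.3), with Benjamini-Hochberg adjustment over all genes. The fit was tested on simulated data.

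All 10 members were named in any case, and from each exocytosis list the gene with the smallest p in each direction. Snap25 was added because its unadjusted p was under 0.05. The members and lists were chosen with earlier results of these data known.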

Additional observations from a re-analysis of the deposited data

Results flagged for a closer look

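Among 24 probe values checked, 2 had an MPE array that stood apart from the other 3, where chance alone flags about 1 in 20 values. Syt6 was at -2.43 on MPE replicate 1 and between -2.79 and -2.74 on the others. Without that array its log2 difference was -0.27 (SE 0.06), with an adjusted limma p of 0.907, against -0.19 (SE 0.10) with all arrays. Stxbp4 was at -1.03 on MPE replicate 4 and between -2.65 and -2.45 on the others.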

How the results depend on the processing

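The count of the 9 measured members called was 0 in each direction under every alternative run, each array left out included. All 9 were well above background by every detection rule tried. The count of exocytosis genes called was 0 except without a filter on dim probes, which called 4 higher, Syt12, Sytl2, Cplx4 and Rims4, none of them well above background on any array, where 21.2% of all genes were called higher. The small differences of several genes changed sign. With median scaling, Syt2 was at -0.02, Syt7 at -0.03, Cplx1 at -0.04 and Sv2a at -0.03 on the log2 scale. With quantile normalization, Syt2 was at -0.00 and Syt13 at 0.02, and in the authors' value table at -0.01 and 0.01. With normexp, on median spot signal since mean signal was not used here, Syt2 was at -0.05, Syt3 at 0.01, Syt7 at -0.01 and Syt13 at 0.03. With array weights, Syt7 was at -0.01 and Cplx1 at -0.04. With the dimmest probe, Syt2 was at -0.00, Syt14 at -0.48 and Cadps at 0.01, and with the mean of its probes Syt14 was at -0.06. With the slide column as a block, Syt3 was at 0.02. Same-numbered arrays of the 2 groups had deviations correlated at 0.247, 0.051 and 0.413, all of them positive. The labels name no pairing, and the numbers were not taken as pairs in the main fit. Over all 12 vehicle and MPE pairs, the 6 within slide columns 1 and 2 or within columns 3 and 4 correlated at 0.051 to 0.413 and the other 6 at -0.334 to -0.011. Deviations from a group mean cancel within the group, so correlations of both signs are partly built in. With columns 1 and 2 against 3 and 4 as a block, chosen after these values were seen, Syt3 was at 0.01 and no synaptotagmin or exocytosis gene was called. With the replicate block, Syt13 was at 0.02 and Cplx1 at -0.03, and 0 synaptotagmins were called. When each array was left out in turn, Syt2 ranged from -0.09 to 0.17, Syt3 from -0.07 to 0.02, Syt4 from -0.14 to 0.02, Syt7 from -0.05 to 0.14, Syt13 from -0.08 to 0.02 and Cplx1 from -0.03 to 0.08. Syt14 ranged from 0.15 to 0.53, Stxbp4 from 0.08 to 0.62 and Doc2g from 0.42 to 0.98. Syt1, Syt9 and Syt11 kept their sign under all 21 alternatives, at 0.06 to 0.19, -0.16 to -0.07 and -0.10 to -0.01. The cause of these turns was not tested.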
